A study of Caenorhabditis elegans with 12 samples.

Results

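The genes described here are 9 members of the DM domain family of Caenorhabditis elegans: mab-3, dmd-3, mab-23 and dmd-4 to dmd-9, found by gene symbol among the 20182 genes of the count table. The DM domain, named after Doublesex of Drosophila and MAB-3 of C. elegans, is a zinc-binding domain that contacts DNA, and transcription factors that carry it direct sexual differentiation in many animals. In C. elegans, mab-3 and dmd-3 act in male development. LIN41 is an RNA-binding protein of the TRIM-NHL family that represses mRNAs in the juvenile worm and is itself silenced by the let-7 microRNA before adulthood.

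RNA co-immunoprecipitation with sequencing (RIP-seq) was done on 12 libraries from whole worms of the L3 and L4 larval stages, after about 30 h at 25 °C on E. coli NA22, in 4 groups of 3 replicates: LIN41 IP, LIN41 input, SART-3 IP and SART-3 input. Worms of the LIN41 groups carried the lin-41(n2914) mutation together with xeSi197, a transgene in which the promoter and the 3′UTR of lin-41 itself drive flag-gfp-tagged LIN41. Worms of the SART-3 groups carried xeSi55, a transgene in which the dpy-30 promoter drives a tagged form of the nuclear splicing protein SART-3, with the 3′UTR of xrn-2. The him-5(e1490) mutation, under which more of the progeny are male than normal, was shared by all 4 groups, so each library mixes RNA of males and hermaphrodites. The lin-41 mutation was present only on the LIN41 side, and the transgenes differed in promoter and protein. A difference between the strains therefore cannot be told apart from a difference in genotype, and in whole worms fewer cells of a type cannot be told apart from less RNA per cell.

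The question for these genes was which of their mRNAs the anti-FLAG IP of LIN41 recovered beyond its input and beyond the SART-3 control. Library totals spanned 291466 to 404046 counts for the LIN41 IP, 859814 to 2024430 for its input, 412440 to 612445 for the SART-3 IP and 1274703 to 1401265 for its input. Normalized CPM, the counts of a gene scaled to library size with TMM factors, are used for levels, and 3 counts corresponded to 8.23 to 13.7 CPM in the LIN41 IP and to 1.30 to 3.35 CPM in the LIN41 input. These limits cover counting error only. The libraries of replicate 1 stood apart: chi-square per degree of freedom over genes was 3.61 to 15.1 for pairs within a group that included replicate 1 and 1.62 to 2.22 between replicates 2 and 3. All IPs were sequenced in lane 4 and all inputs in lane 3, so lane and library type cannot be told apart. Markers of muscle, intestine, neurons, epidermis and germline were all detected in every group. Since the authors collapsed reads with the same 5′ end, counts of a short, abundant mRNA have a ceiling. The family was far from it, with at most 0.207 counts per bp in any library (dmd-6), against 0.932 for the highest gene.

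Of the 9 genes, 7 had at least 10 counts in 3 or more libraries. The 2 below this minimum were dmd-5 (WBGene00017326), with 29 counts over all libraries, and dmd-8 (WBGene00020708), with 43. Lying just inside the minimum, dmd-4 (WBGene00007776) reached 10 counts in 4 libraries, whereas dmd-8 did so in 1 library. The filter of edgeR on low counts, which needs enough counts in the libraries of a group, kept 6 of the 9: mab-3, dmd-3, mab-23, dmd-6, dmd-7 and dmd-9. Since the study named the mRNAs of mab-3 and dmd-3 as bound by LIN41 from these same libraries, their values below are no independent evidence of binding.

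The mab-3 mRNA encodes the founding member of the family, which represses yolk protein genes in the male intestine and acts in ray and tail tip development. The gene (WBGene00003100) lies at II:9732137-9738035 on the plus strand in WBcel235. It was the most abundant DM domain mRNA of the LIN41 IP, both in CPM and per coding length. Its level was 242, 318 and 331 CPM in the 3 LIN41 IP libraries, against 50.5, 50.2 and 79.1 CPM in the LIN41 inputs. In the SART-3 strain it was 39.5, 87.5 and 65.5 CPM in the IPs, against 50.3, 71.2 and 85.4 CPM in the inputs. Every LIN41 IP library therefore lay above every other library, while the SART-3 IP and its input overlapped.

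The mab-3 levels rest on 288 counts in the 3 LIN41 IP libraries together and on 93 in those of the SART-3 IP. Fitted over all genes, mab-3 was 4.88-fold higher in the LIN41 IP than in its input (log2 2.29, standard error 0.19, n = 3, edgeR quasi-likelihood test, Benjamini-Hochberg adjusted p = 1.04e-06). For the SART-3 IP against its input the difference was -0.06 on the log2 scale, with a 95% interval of -0.52 to 0.40 (adjusted p = 0.873). Between the IPs, mab-3 was 4.51-fold higher with LIN41 than with SART-3 (log2 2.17, standard error 0.22, adjusted p = 2.53e-05), and the adjusted p was 0.0513 with no replicate block.

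dmd-3 encodes a DM domain factor required for the retraction of the male tail tip, in which the pointed larval tail is remodelled into the blunt adult form. The gene (WBGene00012832) lies at V:19650025-19655251 on the minus strand. Its level was 86.9, 74.1 and 63.9 CPM in the LIN41 IP, against 18.6, 24.5 and 17.4 CPM in the LIN41 inputs. In the SART-3 strain, it was 2.82, 8.41 and 14.6 CPM in the IP, against 8.87, 30.7 and 37.4 CPM in the inputs. All LIN41 IP libraries were again above all others, but the SART-3 libraries ranged widely, and the libraries of replicate 1 were the lowest in both SART-3 groups.

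The dmd-3 counts were few, with 19, 27 and 23 in the LIN41 IP and 1, 5 and 6 in the SART-3 IP. The mRNA was 3.47-fold higher in the LIN41 IP than in its input (log2 1.80, standard error 0.38, n = 3, edgeR adjusted p = 0.00465), a call lost without replicate 3 (log2 1.84, adjusted p = 0.0535) or without the LIN41 IP of replicate 1 (log2 1.38, adjusted p = 0.0648). In the SART-3 IP it fell below its input by 1.54 on the log2 scale (standard error 0.52, edgeR adjusted p = 0.0457). That call was lost under 13 of 27 alternatives, over which the adjusted p ran from 0.00109 to 0.226 and the log2 value from -1.98 to -1.13. Among those that lost it were the fits without replicate 2 or 3, without any 1 of the SART-3 IPs, without SART-3 input 2 or 3, and without LIN41 IP 2 or 3. Between the IPs, dmd-3 was 8.45-fold higher with LIN41 than with SART-3 (log2 3.08, standard error 0.52, adjusted p = 0.00943). This last call was lost under 7 of 26 alternatives, with adjusted p from 9.35e-10 to 0.333 and log2 values from 2.63 to 3.74. They included the fits without replicate 2, without LIN41 IP 1 or 2, and without SART-3 IP 2 or 3.

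**Figure D1:**
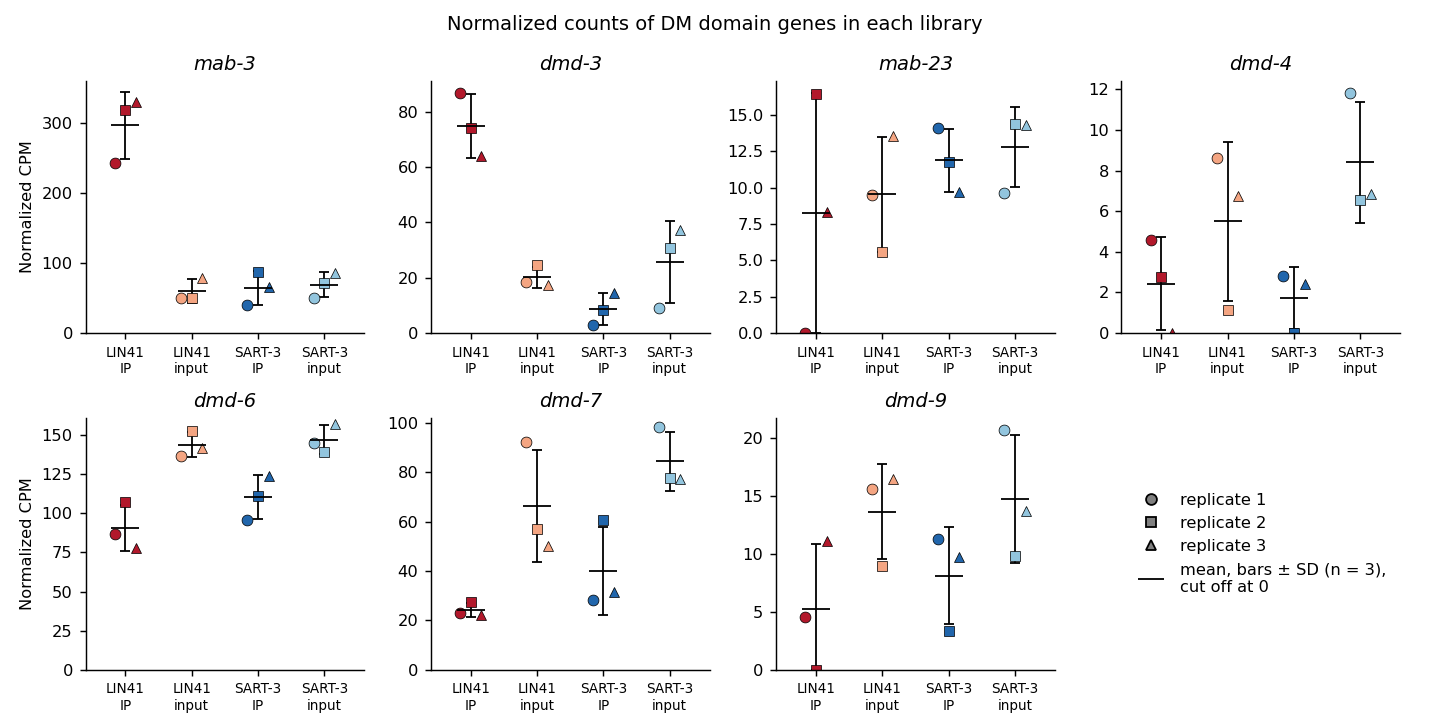
Normalized CPM (y axis, linear, starting at 0, with its own range in each panel) of the 7 DM domain genes with at least 10 counts in 3 or more libraries, by group (x axis); symbols are single libraries and bars are mean ± SD (n = 3). The LIN41 IP points of mab-3 (242 to 331 CPM) and dmd-3 (63.9 to 86.9 CPM) sit above all other libraries, whereas dmd-6 and dmd-7 are lower in each IP than in its own input.

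LIN41-specific enrichment is the log2 ratio of LIN41 IP to input after subtraction of the same ratio in the SART-3 strain. For mab-3 it was 2.35 (standard error 0.29, 95% interval 1.75 to 2.95), a 5.09-fold difference, with the lowest p of all 12036 genes tested (edgeR adjusted p = 0.00139). Computed for each replicate number from log2 CPM with a prior count of 2, it was 2.55, 2.32 and 2.40. Over 28 alternatives its value stayed between 2.18 and 2.71, with adjusted p from 3.38e-12 to 0.447. The call was lost without replicate 3 (log2 2.33, adjusted p = 0.233) and with no replicate block (log2 2.40, adjusted p = 0.447).

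The dmd-3 mRNA had a LIN41-specific enrichment of 3.34, with a larger error (standard error 0.63, 95% interval 2.01 to 4.66). It ranked 4th of 12036 genes by size and 6th by p, and its edgeR adjusted p of 0.0848 missed the threshold of 0.05. Its values for the 3 replicate numbers, 3.25, 3.15 and 3.00, were all positive. They are drawn in by the prior count of 2, and that of replicate 1 rests on 1 count in the SART-3 IP, so their closeness is no measure of precision. The likelihood ratio test that the study's methods name gave 3.36 with an adjusted p of 3.04e-04. The quasi-likelihood test passed the threshold without replicate 1 (log2 3.36, adjusted p = 9.60e-06), without LIN41 input 1 (adjusted p = 0.00456) or without SART-3 input 1 (log2 3.79, adjusted p = 0.00394). It missed the threshold without replicate 2 (log2 3.255), without replicate 3 (log2 3.51, adjusted p = 0.614) and with no replicate block (log2 3.43). Over 27 alternatives the adjusted p ran from 2.50e-07 to 1.00, and dmd-3 stayed uncalled under 19 of them. Part of the dmd-3 value comes from the SART-3 side, where the log2 ratio was -1.15, -1.63 and -1.24 for the 3 replicates, beside 2.10, 1.51 and 1.76 on the LIN41 side.

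Over the 6 DM domain genes tested, 1 was called higher in LIN41-specific enrichment, beside 0.0415% of all genes tested, and none was called lower, beside 0%. Of all 12036 genes tested, 113 had a positive and 121 a negative value at an unadjusted p under 0.05 in edgeR. The likelihood ratio test, DESeq2 and limma-voom called 0 lower as well. The median over the 6 genes was -0.12, and that of all genes was -0.03.

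The other 4 genes tested gave values near those of most genes: 0.02 for mab-23, -0.25 for dmd-6, -0.44 for dmd-7 and -0.38 for dmd-9, each with an adjusted p of 1.00. The precision of these values differed with depth. The 95% intervals were -0.81 to 0.30 for dmd-6 and -1.37 to 0.49 for dmd-7, both below the values of mab-3 and dmd-3, whereas that of mab-23 spans -1.64 to 1.68 and that of dmd-9 spans -2.15 to 1.39. Single libraries moved these values: dmd-7 reached 0.15 without SART-3 IP 2, dmd-9 ran from -1.80 without LIN41 IP 3 to 0.03 without LIN41 IP 2, and dmd-6 ran from -0.42 without LIN41 IP 2 to -0.11 without LIN41 IP 3. mab-23 ran from -1.19 without replicate 2 to 0.72 without replicate 1.

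**Figure D2:**
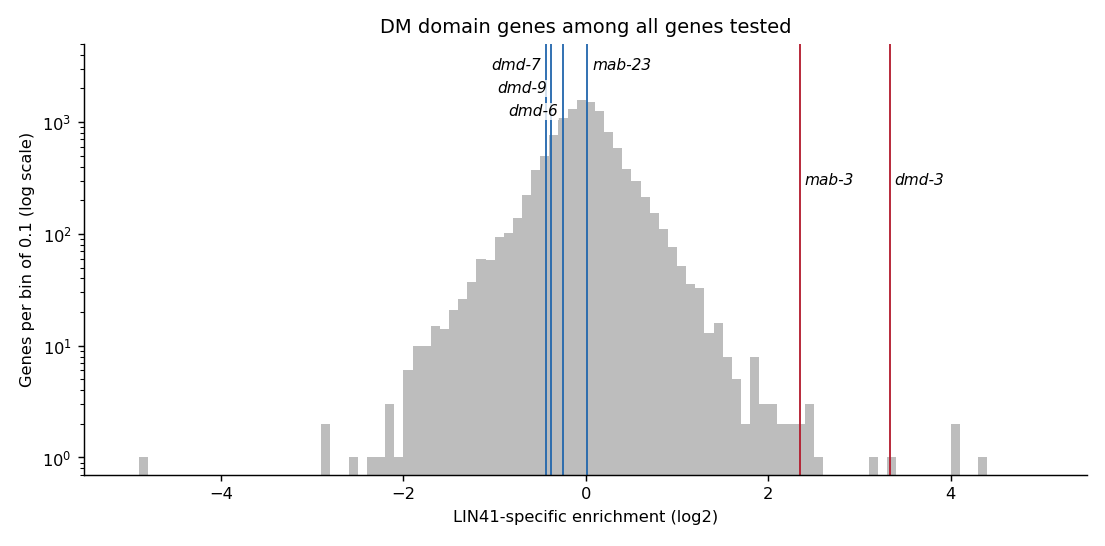
Histogram of the LIN41-specific enrichment (x axis, log2) of the 12036 genes tested, in bins of 0.1 with gene number on a log axis (y axis); vertical lines mark the 6 DM domain genes tested. Only 9 genes lie above mab-3 (2.35) and 3 above dmd-3 (3.34), while dmd-7, dmd-9, dmd-6 and mab-23 (-0.44 to 0.02) lie within the main body.

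The most abundant family member of the inputs was dmd-6 (WBGene00007058), at IV:14616603-14623963 on the plus strand. It had 86.9, 107 and 77.8 CPM in the LIN41 IP, against 137, 153 and 142 CPM in the LIN41 inputs. In the SART-3 strain it had 95.8, 111 and 124 CPM in the IP, against 145, 139 and 157 CPM in the inputs. Each IP lay wholly below its own input, and the inputs had means of 144 ± 8.16 CPM for LIN41 and 147 ± 9.15 CPM for SART-3 (SD, n = 3 each). In the LIN41 IP dmd-6 fell by 0.67 on the log2 scale relative to input (standard error 0.20, edgeR adjusted p = 0.0293), a call lost under 10 of 28 alternatives, with adjusted p from 0.00301 to 0.295. These included the fits without replicate 2 or 3, without LIN41 IP 1 or 3 and without LIN41 input 2 or 3. For the SART-3 IP the value was -0.42 (standard error 0.18), with an adjusted p of 0.104 that passed the threshold under 3 of 28 alternatives, one of them the fit without LIN41 input 1 (log2 -0.42, adjusted p = 0.0326).

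The dmd-7 gene (WBGene00019521) lies at V:6246931-6252458 on the plus strand. Its level was 22.9, 27.4 and 22.2 CPM in the LIN41 IP, against 92.4, 56.9 and 50.2 CPM in the LIN41 inputs. In the SART-3 strain it was 28.2, 60.6 and 31.5 CPM in the IP, against 98.3, 77.7 and 77.3 CPM in the inputs. Here too each IP lay below its input, and the input of replicate 1 was the highest in both strains. The mRNA fell by 1.43 on the log2 scale in the LIN41 IP relative to its input (standard error 0.34, edgeR adjusted p = 0.00938), and this call was lost without replicate 3 (log2 -1.54, adjusted p = 0.0812) or without the LIN41 IP of replicate 1 (log2 -1.30, adjusted p = 0.0670). It fell by 0.99 in the SART-3 IP (standard error 0.26, edgeR adjusted p = 0.0147), a call lost under 5 of 27 alternatives, with adjusted p from 6.79e-04 to 0.227. They were no replicate block and the fits without replicate 3 (log2 -0.87), SART-3 IP 1 (log2 -0.66), SART-3 IP 3 (log2 -0.91) or SART-3 input 3 (log2 -0.88). Although all LIN41 IP libraries were below all SART-3 IP libraries, the difference between the IPs, -0.77 (standard error 0.39), did not pass the test (adjusted p = 0.616).

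For the LIN41 IP against its input, 2 of the 6 tested family members were therefore called higher (mab-3 and dmd-3) and 2 lower (dmd-6 and dmd-7), beside 8.87% and 5.33% of all genes tested. For the SART-3 IP, none was called higher and 2 were called lower (dmd-3 and dmd-7), beside 10.5% and 7.79% of all genes. Both comparisons rest on the same fit. With libraries scaled by total counts only, the median log2 value of all genes shifted by -0.33 for the LIN41 IP and by -0.29 for the SART-3 IP, and the calls over all genes became 693 higher and 2241 lower for LIN41, in place of 1067 and 641, and 776 higher and 2256 lower for SART-3, in place of 1262 and 938. The same 4 members were called for the LIN41 IP, and dmd-6 (log2 -0.71) joined dmd-3 and dmd-7 for the SART-3 IP. Markers of other tissues were called as well: in both IPs, act-5 (intestine) and rol-6 (epidermis) were higher and ges-1 (intestine) and bli-1 (epidermis) lower than input. In the SART-3 IP, of 5 neuron markers, unc-119 was higher and unc-31, unc-104 and rab-3 lower. In the LIN41 IP, gld-1 and oma-1, of 8 germline markers, were lower. Their part in the members' values was not tested. The median log2 value over the 6 members was -0.39 for the LIN41 IP and -0.66 for the SART-3 IP, and over all genes it was -0.07 and -0.03. Between the IPs, 2 members were called higher with LIN41 and none lower, beside 0.191% and 0.0249% of all genes.

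**Figure D3:**
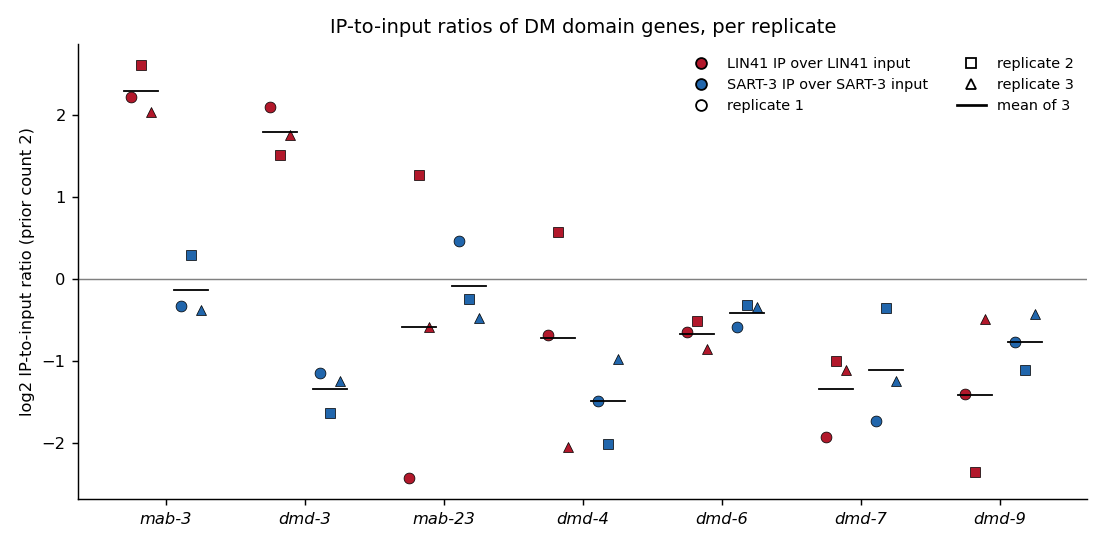
Log2 IP-to-input ratio (y axis, from log2 CPM with a prior count of 2) for each replicate number of 7 DM domain genes (x axis), LIN41 in red left of SART-3 in blue; horizontal bars are means of 3. For mab-3 and dmd-3 the LIN41 ratios (1.51 to 2.61) are separated from the SART-3 ratios, dmd-6 and dmd-7 are below 0 in both IPs, and mab-23 and dmd-4 scatter widely in the LIN41 IP.

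The remaining members were expressed at low levels. mab-23 (WBGene00003114), at V:10633058-10635525 on the plus strand, acts in patterning of the male tail and nervous system. It had 0, 16.5 and 8.34 CPM in the LIN41 IP, against 9.50, 5.58 and 13.5 CPM in the LIN41 inputs, so that the IP libraries lay on both sides of the inputs. In the SART-3 strain it had 14.1, 11.8 and 9.70 CPM in the IP, against 9.61, 14.4 and 14.3 CPM in the inputs. With 9 counts in all LIN41 IPs together, the log2 value of -0.11 against input had a 95% interval of -1.38 to 1.17, and a change within it was not detectable at this depth.

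The dmd-9 gene (WBGene00022060) lies at IV:3253261-3254543 on the minus strand. It had 4.57, 0 and 11.1 CPM in the LIN41 IP, against 15.5, 8.92 and 16.4 CPM in the LIN41 inputs. The SART-3 IP had 11.3, 3.37 and 9.70 CPM, against 20.7, 9.80 and 13.7 CPM in its inputs. The log2 IP-to-input values of -1.28 for LIN41 (standard error 0.62) and -0.90 for SART-3 (standard error 0.49) did not pass the edgeR test (adjusted p = 0.177 and 0.208), although in every replicate the IP was below the input of the same number in both strains.

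dmd-4, at X:14857303-14861852 on the minus strand, has a role in sexually dimorphic sensory neurons. It was at the limit of detection in the IPs, with 1, 1 and 0 counts in the LIN41 IP and 1, 0 and 1 counts in the SART-3 IP. The inputs held more, with 20, 1 and 7 counts for LIN41 and 16, 10 and 11 counts for SART-3. Fitted with no filter on low counts, its log2 value was -1.27 in the LIN41 IP against input (standard error 1.04, adjusted p = 0.528) and -2.36 in the SART-3 IP (standard error 0.92, adjusted p = 0.0613). dmd-5, which acts in the male wiring of the AVG interneuron, had 2 counts in the 3 LIN41 IPs together, against 11 in the LIN41 inputs, and 1 count in the SART-3 IPs, against 15 in the SART-3 inputs. dmd-8 had 3 counts in the LIN41 IPs, against 19 in the LIN41 inputs, and 5 counts in the SART-3 IPs, against 16 in the SART-3 inputs.

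Dividing the counts of each gene by the sum over the 9 genes shows how the composition of the family shifted. In the LIN41 IP, mab-3 and dmd-3 together made up 73.3 ± 2.45% of the family's counts (SD, n = 3), against 24.6 ± 4.35% in the LIN41 input. With SART-3 they made up 28.4 ± 6.45% in the IP, against 25.4 ± 7.58% in the input. The share in each LIN41 IP library, from 71.1% to 75.9%, lay above that of every other library, the highest of which was 33.3%. At the same time, dmd-6 took 17.9 ± 2.50% in the LIN41 IP, against 44.4 ± 5.30% in the LIN41 input, and 44.7 ± 5.30% in the SART-3 IP, against 39.9 ± 0.98% in the SART-3 input. These shares are a description with no test, on a scale that needs no normalization between libraries. Within a library they add up to a fixed total, so a higher share of some genes lowers the shares of the others. They need not follow the levels given above: in the SART-3 IP, dmd-6 was below its input in CPM, but its mean share was above that of the input.

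**Figure D4:**
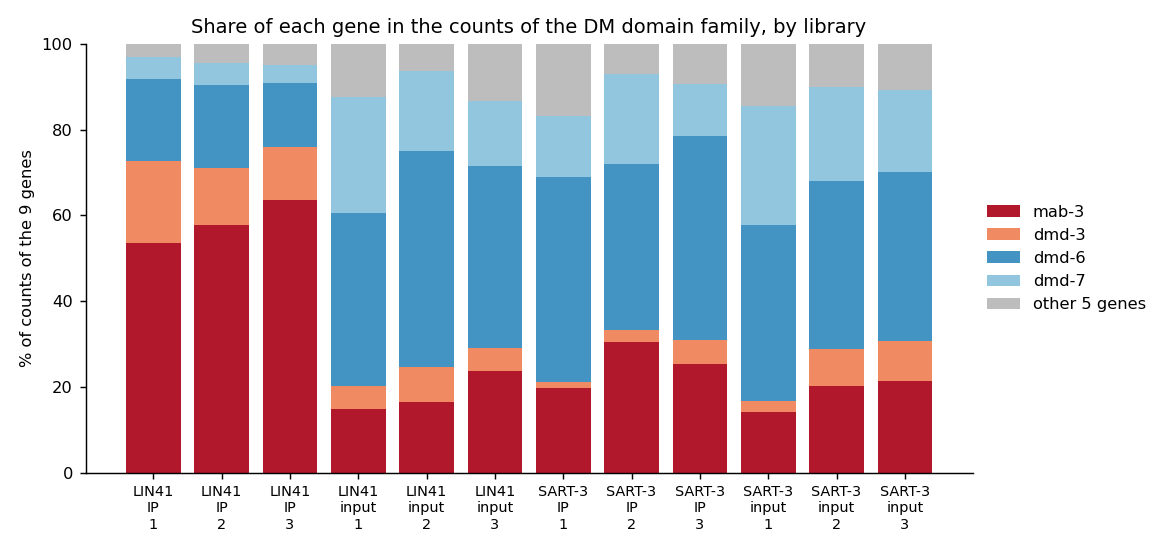
Share (y axis, % of the counts of the 9 DM domain genes) of mab-3, dmd-3, dmd-6, dmd-7 and the sum of the other 5 in each of the 12 libraries (x axis). mab-3 and dmd-3 together fill 71.1% to 75.9% of the bar in the LIN41 IP libraries and at most 33.3% in any other library.

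Per coding length, the order of the levels differed between groups. The length used for mab-3, 1261 bp, is the only one of the 9 that is not a multiple of 3, so it may hold bases outside the coding sequence. In the LIN41 IP, mab-3 came first with 236 ± 37.9 CPM per kb, ahead of dmd-3 (99.5 ± 15.3), dmd-6 (59.1 ± 9.74) and dmd-7 (17.9 ± 2.10; SD, n = 3 each), and the ranges of these neighbours did not overlap. In the LIN41 input, the order was dmd-6 (93.8 ± 5.32 CPM per kb), dmd-7 (49.3 ± 16.8), mab-3 (47.5 ± 13.2) and dmd-3 (26.8 ± 5.10), where dmd-7 and mab-3 overlapped. The SART-3 input had the same first 4 genes in the same order, with dmd-6 at 95.9 ± 5.97 CPM per kb and an overlap at each following step. In the SART-3 IP, dmd-6 led with 71.9 ± 9.12 CPM per kb and mab-3 followed with 50.9 ± 19.1, and each gene overlapped its neighbour in the order. The ranges of mab-23 and dmd-9 overlapped in each group other than the SART-3 IP, where mab-23 was the higher of both in every library.

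Before any IP, the strains themselves were compared through their inputs. All 6 members tested had a negative log2 value for LIN41 input against SART-3 input, from -0.36 (mab-23) to -0.03 (dmd-6), and none was called in edgeR at an adjusted p under 0.05 or at an unadjusted p under 0.05. The median was -0.22 over the 6 members and 0.008 over all genes. At an unadjusted p under 0.05, 854 of all 12036 genes tested were higher and 259 lower. Beside these numbers, no call among 6 genes says little about them. Of all genes, 1.32% were called higher and 0.0914% lower, and among the tissue markers spe-11 (sperm, edgeR adjusted p = 0.0421) and bli-1 (epidermis, log2 1.45, adjusted p = 0.00354) were higher in the LIN41 input. For mab-3 the difference was -0.17, with a 95% interval of -0.57 to 0.22, and for dmd-3 it was -0.26, with an interval of -0.99 to 0.47. By replicate number, from log2 CPM with a prior count of 2, the dmd-3 difference between the inputs was 0.91, -0.30 and -1.02. The part of input differences in the differences between the IPs was not tested. Without replicate 1, dmd-3 and dmd-7 were called lower in the LIN41 input, with values of -0.72 (adjusted p = 0.0392) and -0.54 (adjusted p = 0.00954), in a fit that called 1844 genes higher and 1019 lower. Without LIN41 input 1 alone, dmd-7 was called lower (log2 -0.60, adjusted p = 0.0468). Markers of sperm, summed over 8 genes of which none was at 0 in any group, were lowest in replicate 1 of both inputs, with 231 CPM for LIN41, against 250 and 357 CPM in the other replicates, and with 157 CPM for SART-3, against 199 and 310 CPM in the others. The dmd-3 level was lowest in the same SART-3 input library, but in the LIN41 input it was lowest in replicate 3 (17.4 CPM). Sperm markers were not the only ones to move. In the LIN41 input, summed epidermis markers were lowest in replicate 1 (543 CPM, against 1074 and 1020 CPM). Muscle markers were highest there (3347 CPM, against 2408 and 2158 CPM). In the SART-3 input, muscle markers were again highest in replicate 1, and epidermis markers were not lowest there. The part of such differences in the dmd-3 result was not tested.

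Genes that work with these factors in the male were examined as lists. Since 0.0415% of all genes were called higher in LIN41-specific enrichment and 0% lower, a list of this size with no call says little about the list. None of the 9 male tail tip genes tested was called, with values from -0.72 (eff-1, a cell fusion gene) to 0.67 (egl-18, a GATA factor gene). The same held for the 12 of 15 male ray genes that could be tested, and for 10 of 11 sex determination genes. Of the vitellogenin genes, which encode the yolk proteins that mab-3 represses in males, 3 of 6 could be tested and none was called. Male neuron markers were too low to test, with 0 of 9 passing the filter and a summed level of 21.9 to 73.2 CPM in the LIN41 IP, 27.9 to 43.4 CPM in its input, 18.5 to 39.5 CPM in the SART-3 IP and 16.2 to 36.2 CPM in its input. Of these 9 markers, 2 were at 0 in all LIN41 IP libraries and 1 in all SART-3 IP libraries. Median values of the tested lists were 0.13 for tail tip, 0.17 for ray and 0.10 for sex determination genes.

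Beside mab-3, the genes called higher in LIN41-specific enrichment included lin-29, a zinc finger gene of the larval-to-adult switch, with 4.06, and mab-10, which encodes its cofactor, with 4.35 (edgeR adjusted p = 0.0181 and 0.00210). Like mab-3 and dmd-3, both were named by the study from these libraries, lin-29 as its isoform lin-29a. The counts here are per gene and do not separate isoforms. According to the paper, these mRNAs had already been identified as LIN41 targets by earlier ribosome profiling. Their values by replicate number were 6.48, 2.81 and 3.12 for lin-29 and 5.43, 3.20 and 4.23 for mab-10, with replicate 1 the highest in both, whereas the range over replicates was 2.32 to 2.55 for mab-3 and 3.00 to 3.25 for dmd-3. Whether these spreads differ between the genes was not tested, and the dmd-3 range includes a value that rests on 1 count in the SART-3 IP.

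The 5 genes whose log2 CPM followed mab-3 most closely over the 12 libraries were bath-45 (Pearson r = 0.89), vrp-1 (0.89), hil-7 (0.89), mab-10 (0.89) and lin-29 (0.87). For dmd-3 they were gtf-2H4 (0.85), mab-10 (0.84), nsph-1.2 (0.84), F26H11.4 (0.83) and mab-3 (0.82). mab-10 was thus in both lists, and mab-3 was the only DM domain gene in the list of dmd-3. With a prior count of 0.5, the 5 genes of mab-3 stayed, but Y48A6B.8 replaced mab-3 in the list of dmd-3. Some of these genes had few counts. In the SART-3 IP, hil-7 had 1, 4 and 1 counts and bath-45 had 2, 4 and 4. These libraries share IP and input material, replicate numbers and depth, so the coefficients are a description. With Spearman's rho in place of Pearson's r, the 5 genes closest to mab-3 were all others, and 2 of the 5 of dmd-3 (gtf-2H4 and nsph-1.2) stayed.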

How the data were processed

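Whole-worm RNA from anti-FLAG IPs and their inputs was sequenced by the authors, who collapsed reads with the same 5′ end, aligned them with QuasR and counted those overlapping WormBase WS190 exons. The deposited values are raw counts per gene, not normalized, and a length per gene (nearly all without UTRs, so called coding length, with mab-3 a possible exception). The assembly is ce6 in the paper and ce10 in the submitters' processing notes. Whether counting used strand is not given in the sources used here. The WBcel235 annotation supplied symbols (18778 of 20182 identifiers matched) and positions of the genes only. In its exon models, the only counted neighbour overlapping a member was ifb-1, by 31 bp on the strand opposite dmd-5.

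Libraries were grouped by the sample labels, and the labels give 3 replicates per group, which the paper calls independent experiments. Genes passing filterByExpr (12036) were fitted in R 4.3.3 with edgeR 4.0.16 over all 12 libraries: TMM factors, a term for each of replicate number, IP or input, and strain, and the interaction of both last terms, with 5 contrasts, two-sided quasi-likelihood tests and a Benjamini-Hochberg adjusted p under 0.05 over all genes. Standard errors were derived from F, as |log2| over its square root. The replicate term stands for the batch term of the study's methods, and same-numbered libraries of groups set against each other deviated together from their group means, in 12 of 12 cases (r over genes 0.24 to 0.72). Over all 18 pairs of groups and replicates, 17 had r above 0.1, and the lowest was 0.04 (LIN41 input with SART-3 IP, replicate 2). Deviations within a group sum to 0, so these cases are not independent. The fit was tried on simulated counts with the same spread for every gene and no replicate effect, so that trial does not cover the differences between replicates seen here.

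The members, gene lists, tests and alternatives were chosen with earlier results of these data known. All 9 members are named. Of the lists, the text gives counts and up to 4 genes with the largest absolute LIN41-specific enrichment. Some marker genes are named because they were called in another comparison, and of these rab-3 is outside those 4. Likeness names the 5 highest Pearson r. Alternatives were the likelihood ratio test, DESeq2 1.42.0, limma-voom (limma 3.58.1), other scalings (upper quartile, RLE, totals alone), other filters, a robust fit, thinned counts, other replicate terms, an adjusted p under 0.1, and leaving out replicates or libraries. No sequence is shown.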

Additional observations from a re-analysis of the deposited data

Results flagged for a closer look

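The LIN41-specific enrichment of mab-3, 2.35 on the log2 scale, was marked because the IP-to-input ratio differed between the LIN41 and SART-3 strains by a test of the difference itself, the interaction term of the edgeR fit (adjusted p = 0.00139), in the same direction in 3 of 3 replicate numbers. No explanation for it was tested. Groups of 3 libraries are too small for a test of single outlying libraries.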

How the results depend on the processing

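No value of the 6 members that passed the threshold changed sign under any alternative. The LIN41-specific enrichment of mab-3 ranged from 2.18 to 2.70 with libraries left out and kept its call under 26 of 28 alternatives, the exceptions being no replicate block (2.40) and the fit without replicate 3 (2.33). For dmd-3 the value passed the threshold with the likelihood ratio test (3.36), a block per lysate (3.49), DESeq2 (3.42), no filter on low counts (3.33) and an adjusted p under 0.1 (3.34), and with libraries left out it ranged from 2.95 to 3.79. The dmd-3 value stayed uncalled under 19 of 27 alternatives, among them no replicate block and the fits without replicate 2 or 3.

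The number of members called in LIN41-specific enrichment was 1, and it was 2 with the likelihood ratio test, a block per lysate, DESeq2, no filter on low counts or an adjusted p under 0.1, 0 with no replicate block, and 0 to 2 with libraries left out. For the LIN41 IP against its input it was 4, and 3 with no replicate block, DESeq2, limma-voom or thinned counts, all without dmd-6. It was 2 with a strict filter (at least 10 counts in every library), where only mab-3 and dmd-6 were tested, and 1 to 4 with libraries left out. For the SART-3 IP it was 2, and 0 with no replicate block and 1 with DESeq2, limma-voom or thinned counts (dmd-7). It was 1 of 2 tested with the strict filter (dmd-6, uncalled in the main fit), 3 with totals alone (dmd-6 as well), and 0 to 3 with libraries left out. For the inputs it was 0, and 0 to 2 with libraries left out. Between the IPs it was 2, and 0 with no replicate block, 1 with limma-voom or the strict filter, and 1 to 2 with libraries left out. Calls over all genes moved too. Genes tested were 12036 in the main fit, 18357 with no filter, 9056 with thinned counts and 5255 with the strict filter. Calls under these settings are out of different totals. LIN41-specific enrichment called 5 genes higher, and 0 with no replicate block or without replicate 3. It called 7 with the likelihood ratio test or a block per lysate, 4 with DESeq2 and 6 at an adjusted p under 0.1. It called 9 with no filter, 3 with totals alone and 1 with the strict filter. The LIN41 IP called 1067 higher and 641 lower, 1433 and 1144 at an adjusted p under 0.1 and 148 and 20 without replicate 3. DESeq2 gave 1007 and 295, limma-voom 1092 and 354, the likelihood ratio test 1316 and 958 and no replicate block 497 and 114. No filter gave 1169 and 1155, the strict filter 795 and 625, thinned counts 828 and 471 and totals alone 693 and 2241. The SART-3 IP called 1262 and 938, 1766 and 1558 at an adjusted p under 0.1 and 29 and 15 without replicate 3. DESeq2 gave 1123 and 613, limma-voom 1298 and 773 and no replicate block 521 and 163. No filter gave 1340 and 1434, the strict filter 864 and 743, thinned counts 859 and 623 and totals alone 776 and 2256. The inputs called 159 and 11, 278 and 21 at an adjusted p under 0.1 and 1844 and 1019 without replicate 1. DESeq2 gave 59 and 3, limma-voom 32 and 5, the likelihood ratio test 387 and 31 and no replicate block 0 and 0. No filter gave 356 and 32, the strict filter 17 and 1, thinned counts 19 and 2, upper quartile factors 54 and 4 and totals alone 26 and 3. The IPs against each other called 23 and 3, 38 and 6 at an adjusted p under 0.1 and 223 and 145 without replicate 1. Here limma-voom gave 16 and 2, the likelihood ratio test 98 and 12 and no replicate block 1 and 0. No filter gave 68 and 8 and the strict filter 14 and 1. Of the fits that leave out libraries, 1 per comparison is given here. The cause was not tested. Depth limits mab-23, dmd-4, dmd-5, dmd-8 and dmd-9, with at most 16 counts in any IP group.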

Other observations

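A further gene named for the DM domain, dmd-10, did not pass the filter on low counts. It had 0, 0 and 2 counts in the LIN41 IP, against 98, 5 and 5 counts in the LIN41 inputs. In the SART-3 strain it had 1, 2 and 0 counts in the IP, against 30, 5 and 11 counts in the inputs. Its input counts were highest in replicate 1 of both strains, as were those of dmd-4 and dmd-9 in CPM in the SART-3 input (11.8 CPM for dmd-4 and 20.7 CPM for dmd-9), whereas mab-3 and dmd-3 were lowest there (50.3 and 8.87 CPM). Of the markers for other tissues, none of 6 muscle, 5 intestine, 5 neuron and 5 epidermis genes tested was called in LIN41-specific enrichment, in which 0.0415% of all genes were called higher, although several were called in the IPs against their inputs.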
